A study of Arabidopsis thaliana with 15 samples.

Results

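Gene expression in leaves of 2 Arabidopsis insertion lines, at3g50420 and at5g10690, was compared directly, without the wild type between them. The comparison used the 3 libraries labelled at3g50420 and the 3 labelled at5g10690, which are 6 of the 15 libraries of the series. Libraries were chosen by the line in their labels, and libraries with the same replicate number (1 to 3) formed a pair. The other 9 libraries, 3 each of Col-0, pgn and mef37-1, are used here only as a reference for single genes. The study addressed the part of pentatricopeptide repeat (PPR) proteins in the editing of organelle RNA, and editing itself is not analysed here.

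The at3g50420 plants were labelled as a knock-out of AT3G50420 by T-DNA and were 25.5 days old. The at5g10690 plants were labelled as a knock-out of AT5G10690. Their replicates 1 and 2 carried a T-DNA label and stage 1.14 of the Boyes scale of growth, whereas replicate 3 had no mention of T-DNA and dates of planting and harvest that lie 41 days apart. The labels give age in days for at3g50420 and as a stage or dates for at5g10690. For replicates 1 and 2 they do not show whether age differed, and any such difference cannot be told apart from line. All 6 samples were rosettes of untreated plants grown with 16 h of light at 20 °C and 8 h of dark at 18 °C, at 80% humidity per the labels. The study's methods state that homozygous T-DNA plants were selected by PCR, but the study does not name these 2 lines. Each gene is represented by 1 insertion line, and the position of the insertion is not given in the sources used here. The series description counts 1 biological replicate, so whether the 3 libraries of a line come from separate plants is not settled. The p-values measure the spread between these libraries. Within a line, that spread was 22.8 to 108 times the sampling variance.

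PPR proteins bind RNA through tandem helical repeats and act in mitochondria and plastids, where members of the family direct C-to-U editing, splicing, cleavage or stabilization of single transcripts. The family is large in land plants, and its genes lie in the nucleus. AT3G50420 is annotated as a member of the PPR superfamily. AT5G10690 is annotated as a PPR protein that also carries a CBS domain, a fold that in other proteins binds adenosine nucleotides.

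Between 26213300 and 29176417 reads were counted in the at3g50420 libraries, and between 19555274 and 26101740 in the at5g10690 libraries. Plastid genes held 59.3% to 65.0% of the counts in at3g50420 and 60.2% to 63.2% in at5g10690. The summed normalized count of 5 leaf markers (LHCB1.1, RBCS1A, RCA, CA1 and GAPA) was 188000 to 360000 in at3g50420 and 63300 to 305000 in at5g10690, and the lowest value was that of at5g10690 replicate 3. Seed markers summed to at most 1.27 and 1.24 normalized counts in any library of at3g50420 and at5g10690. Flower markers summed to at most 7.63 and 2.48, and AP1, which sets floral identity, was at 0 in all 6. Root markers summed to 121 to 235 in at3g50420 and 118 to 639 in at5g10690. A normalized count is the count scaled by library size and TMM factor over all 15 libraries.

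Very few genes passed edgeR's quasi-likelihood test between the lines, while DESeq2 and edgeR's likelihood ratio test called more, as given at the end. Of 17533 genes tested, 4 passed an adjusted p of 0.05 in edgeR's quasi-likelihood test with the pair as a block, which is 0.0228% of the genes. AT5G10690 and the defensin gene PDF1.2b rose in at3g50420 relative to at5g10690, and AT3G50430 and AT5G52390 fell. The median log2 fold change (at3g50420 minus at5g10690) over all genes was 0.01. At an unadjusted p under 0.05 stood 2363 genes (13.5%), of which 1184 (6.75%) were higher and 1179 (6.72%) lower in at3g50420. The normalized counts of the lines did not overlap in 1783 genes (10.2%). Without the block the same test called 1 gene, AT5G10690, and 617 genes had an unadjusted p under 0.05.

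The gene targeted in at5g10690 told the lines apart. AT5G10690, on the minus strand of chr5:3373640-3377579 (TAIR10), had 288, 314 and 264 counts in at3g50420, against 1, 3 and 4 counts in at5g10690. The level was 298.6 ± 77.8 normalized counts in at3g50420 and 2.72 ± 1.19 in at5g10690 (SD, n = 3 each), and every at3g50420 library lay within the range of the 9 other libraries, 174.0 to 370.2. The log2 fold change was 6.57 with a standard error (SE) of 0.29, 95.1-fold, and edgeR's quasi-likelihood test gave an adjusted p of 0.000108. The libraries labelled at5g10690 thus carried nearly no counts of the gene in their label.

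The other targeted gene did not. AT3G50420, on the minus strand of chr3:18710871-18713649, was counted at only 10, 11 and 13 reads in the libraries labelled at3g50420, against 9, 3 and 29 reads in at5g10690. The log2 fold change was -0.15 (SE 0.52, 95% interval -1.33 to 1.03), with an adjusted p of 0.915 in edgeR's quasi-likelihood test. The 9 other libraries ranged from 4.62 to 18.6 normalized counts, with the at3g50420 libraries between 10.5 and 12.7. Against Col-0, in the fit of all 15 libraries, the log2 fold change was -0.17 (SE 0.53, adjusted p = 0.914). A fall as large as that of AT5G10690 in at5g10690 lies outside the interval and was not seen, so the count goes against a loss of AT3G50420 transcript in the libraries labelled at3g50420, and smaller changes were not detectable at this depth. In every comparison here, at3g50420 stands for the libraries with that label. A count over the whole gene does not separate the parts of a transcript on either side of an insertion.

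The gene next to it did fall. AT3G50430, annotated as a golgin, a class of coiled-coil proteins of the Golgi apparatus, lies on the plus strand of chr3:18713676-18717409 and starts head to head with AT3G50420. The 2 genes are 26 bases apart, and these bases are shown, on the plus strand, because they are the whole annotated space between the 2 starts.
AT3G50420 to AT3G50430, chr3:18713650-18713675: aacaaaaacgctacgttttaataaga
AT3G50430 had 9, 8 and 34 counts in at3g50420, against 74, 91 and 215 counts in at5g10690. The lines did not overlap after normalization, with 8.04 to 27.5 in at3g50420 and 103.5 to 164.1 in at5g10690, and the 9 other libraries held 93.5 to 139.4, all above at3g50420. The log2 fold change was -3.05 (SE 0.28), an 8.31-fold lower level in at3g50420, with an adjusted p of 0.0165 in edgeR's quasi-likelihood test. Each pair had the same direction, and the adjusted p stayed between 5.87e-05 and 0.0373 when any library or pair was left out. Without the block it was 0.941.

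In 1 fit of all 15 libraries, edgeR's quasi-likelihood test gave AT3G50430 a log2 fold change of -2.85 for at3g50420 minus Col-0 (adjusted p = 0.000692) and 0.14 for at5g10690 minus Col-0 (adjusted p = 1.00). That fit tested 18358 genes and called 4 genes (0.0218%) for at3g50420 against Col-0, 3 (0.0163%) for at5g10690 against Col-0 and 4 (0.0218%) for at3g50420 against at5g10690. For AT5G10690 the values were 0.20 in at3g50420 minus Col-0 (adjusted p = 0.708) and -6.41 in at5g10690 minus Col-0 (adjusted p = 6.41e-06). The Col-0 libraries are shared between these contrasts. So AT3G50430 was lower than Col-0 in the at3g50420 libraries, and AT5G10690 in the at5g10690 libraries.

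**Figure D1:**
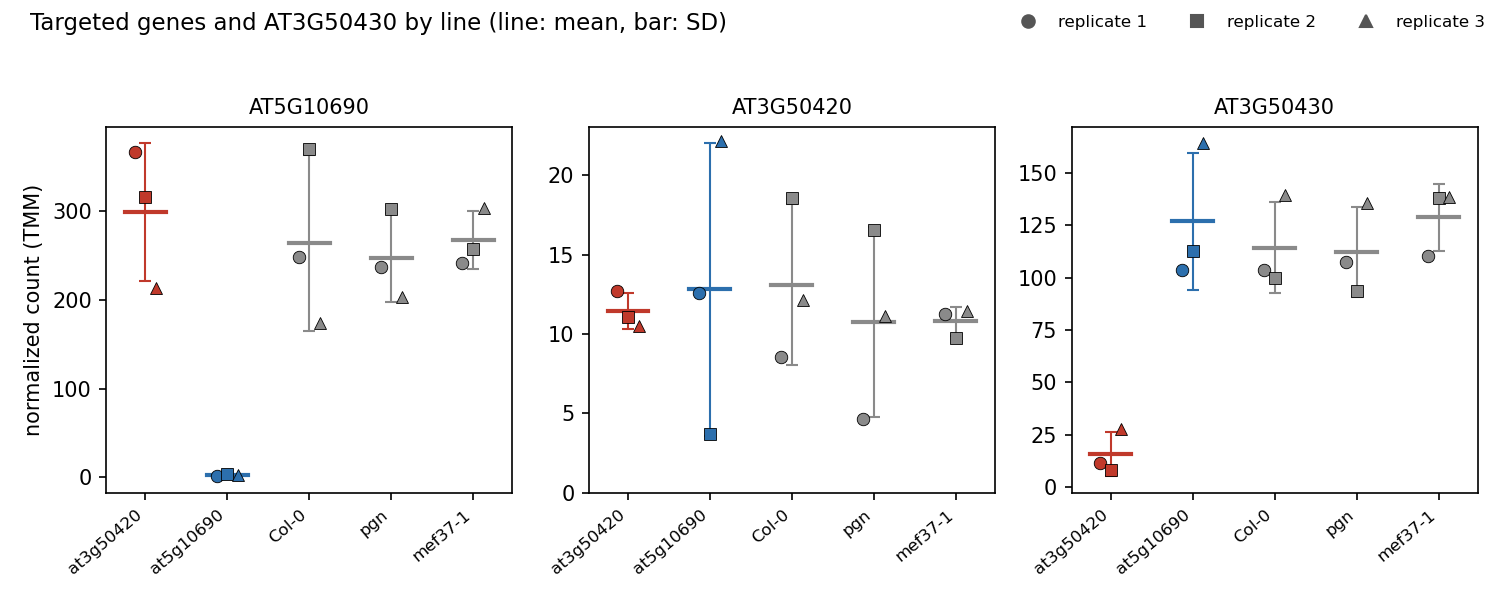
Normalized counts of AT5G10690, AT3G50420 and AT3G50430 (y axes, linear, TMM) in the 15 libraries, by line (x axis), with 1 point per replicate, a line for the mean and a bar for the SD. AT5G10690 is at 1.40 to 3.72 in at5g10690 alone, AT3G50430 at 8.04 to 27.5 in at3g50420 alone, and AT3G50420 overlaps between all 5 lines.

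The remaining neighbours of the targeted genes gave no call. MES10 (AT3G50440), a methyl esterase gene on the far side of AT3G50430 and on the opposite strand, had a log2 fold change of 0.07 (SE 0.20), and AT5G10695, which starts 72 bases beyond AT5G10690, had -0.29 (SE 0.36). OBP1 (AT3G50410), a DOF transcription factor gene 34 bases from AT3G50420, had 6, 6 and 8 counts in at3g50420 against 3, 13 and 5 counts in at5g10690 and was too low to be tested. AT5G10680 overlaps AT5G10690 on the opposite strand and had 0 counts in all 6 libraries, as did AT5G10660. AT3G08115 and AT5G01815 had at most 6 counts in any of the 6.

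Of the plant defensin genes, 4 of the PDF1.2 and PDF1.3 type had higher normalized counts in at3g50420 in every pair, and 1 of them, PDF1.2b, passed the test. Defensins are small cysteine-rich secreted peptides with antifungal activity, and PDF1.2 is the usual marker of the combined response to jasmonate and ethylene. PDF1.2b (AT2G26020, chr2:11089123-11089805) had 1138, 26 and 47 counts in at3g50420, against 107, 4 and 12 counts in at5g10690. Replicate 1 was far above the others in both lines, so the lines overlap although each at3g50420 library was above its partner. Its log2 fold change was 2.90 (SE 0.27), 7.48-fold, with an adjusted p of 0.0165 in edgeR's quasi-likelihood test. The adjusted p was 0.23 without at3g50420 replicate 1, with a log2 fold change of 2.14, and 0.314 without the whole first pair; with the others left out in turn it was 6.01e-06 to 0.0444. It was 0.941 without the block and 0.326 in the fit of all 15 libraries. The 9 other libraries held 4.88 to 333.5 normalized counts of PDF1.2b. Of the 6 libraries, only replicate 1 of at3g50420, at 1448, lay outside that range. Against Col-0, in the fit of all 15 libraries, PDF1.2b had a log2 fold change of 1.36 (SE 1.31) in at3g50420. In at5g10690 it was -1.42 (SE 1.42), and neither was called.

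PDF1.3 (AT2G26010), which lies next to PDF1.2b on chromosome 2, had 6646, 112 and 270 counts in at3g50420, against 1022, 27 and 21 counts in at5g10690. It did not pass, with a log2 fold change of 2.67 (SE 0.31) and an adjusted p of 0.0625 in edgeR's quasi-likelihood test. After normalization, replicate 1 of both lines lay above the 9 other libraries (91.11 to 1207), and replicates 2 and 3 of at5g10690 lay below them. PDF1.2 (AT5G44420) had 7035, 101 and 886 counts against 757, 29 and 308 counts, with a log2 fold change of 2.16 (SE 0.32, adjusted p = 0.144). PDF1.2c (AT5G44430), its neighbour on chromosome 5, had 1945, 16 and 89 counts against 244, 7 and 47 counts, with 2.02 (SE 0.38, adjusted p = 0.245). In the fit without the third pair all 4 of these genes passed, at adjusted p of 3.50e-05 to 0.000376.

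Replicate 1 carried much of the difference in PDF1.2c and PDF1.2. Of the 6 libraries, only replicate 1 of at3g50420 lay above the 9 other libraries of the series in these 2 genes. It had 2475 normalized counts of PDF1.2c and 8952 of PDF1.2, against at most 422.3 and 1269. The log2 ratios of PDF1.2c were 2.86, 0.85 and 1.0 in pairs 1, 2 and 3, and those of PDF1.2 were 3.08, 1.49 and 1.61. Without the first pair, the log2 fold change of PDF1.2c (AT5G44430) was 0.95 (adjusted p = 0.345 in edgeR's quasi-likelihood test) and that of PDF1.2 (AT5G44420) 1.55 (adjusted p = 0.0423). Leaving out replicate 1 of either line alone gave 0.95 and 0.98 for PDF1.2c and 1.55 and 1.56 for PDF1.2. PDF1.3 (AT2G26010) had 2.77 without the first pair (adjusted p = 0.113).

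The RefSeq annotation held 13 genes with a PDF symbol or synonym, a family chosen after values had been seen, and 7 of them had enough counts to be tested. All 7 fold changes were positive, 5 had an unadjusted p under 0.05 (background 6.75% higher) and 1 was called. The median log2 fold change was 2.02 over the 7 genes and 0.01 over all genes. The 2 that did not reach an unadjusted p of 0.05 were PDF1.4, with a log2 fold change of 0.87 (SE 0.44), and LCR69, with 0.15 (SE 0.24). Since a read with several best positions is counted at each, the 4 genes of the PDF1.2 and PDF1.3 type were compared: none of the 400 to 472 windows of 75 exon bases in one gene, the read length, occurred in another of the 4. Reads with sequencing errors may still be shared.

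The 250 bases before the annotated start of these 4 genes are shown, on the strand of each gene, because GCCGCC, the core of the box bound by ethylene response factors, is the element most often named for PDF1.2. Capitals mark GCCGCC on either strand.
PDF1.2b, chr2:11088873-11089122: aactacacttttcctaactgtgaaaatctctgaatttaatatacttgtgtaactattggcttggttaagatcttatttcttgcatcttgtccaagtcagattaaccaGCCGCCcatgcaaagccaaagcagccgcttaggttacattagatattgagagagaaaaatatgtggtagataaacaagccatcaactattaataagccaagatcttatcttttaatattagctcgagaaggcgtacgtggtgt
PDF1.3, chr2:11087030-11087279: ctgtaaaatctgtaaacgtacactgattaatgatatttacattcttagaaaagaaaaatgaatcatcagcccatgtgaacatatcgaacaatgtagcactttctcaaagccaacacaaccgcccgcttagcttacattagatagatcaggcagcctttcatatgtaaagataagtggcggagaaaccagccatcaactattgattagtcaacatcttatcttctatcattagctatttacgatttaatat
PDF1.2, chr5:17907639-17907888: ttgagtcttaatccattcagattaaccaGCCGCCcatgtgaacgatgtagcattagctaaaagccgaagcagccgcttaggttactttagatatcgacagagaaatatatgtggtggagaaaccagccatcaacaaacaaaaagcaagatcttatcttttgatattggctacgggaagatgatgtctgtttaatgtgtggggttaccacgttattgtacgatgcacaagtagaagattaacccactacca
PDF1.2c, chr5:17909508-17909757: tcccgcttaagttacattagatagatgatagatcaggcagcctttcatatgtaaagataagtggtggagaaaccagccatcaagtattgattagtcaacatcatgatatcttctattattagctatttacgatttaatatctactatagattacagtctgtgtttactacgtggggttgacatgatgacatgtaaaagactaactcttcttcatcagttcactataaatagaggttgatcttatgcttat
GCCGCC occurred 143 bases before the start of PDF1.2b and 222 bases before that of PDF1.2, and not in the windows of PDF1.3 and PDF1.2c. It was in 3 of the 13 PDF windows (23.1%), against 618 of the 32546 windows of all nuclear genes (1.90%). The regulators and other targets of the branch were chosen after values had been seen, and 8 of 9 were tested with 0 calls by edgeR or DESeq2. At an unadjusted p under 0.05 stood PR4, a chitin-binding defence protein, with 2341, 1093 and 967 counts in at3g50420 against 1133, 787 and 407 counts in at5g10690 (log2 fold change 0.80, SE 0.22), and the chitinase HCHIB at -0.90 (SE 0.38). ORA59, the ethylene response factor that activates PDF1.2, had 0.34 (SE 0.40). The median of the 8 was -0.01, and over all genes 6.75% were higher and 6.72% lower at an unadjusted p under 0.05.

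AT5G52390 was the second gene that fell. It encodes a PAR1 protein, a family named after a photoassimilate-responsive gene of tobacco. It had 11, 6 and 0 counts in at3g50420, against 108, 58 and 6 counts in at5g10690. Each at3g50420 library was below its partner, while replicate 3 of at5g10690 was below 2 of the at3g50420 libraries. Its log2 fold change was -3.53 (SE 0.37), with an adjusted p of 0.0303 in edgeR's quasi-likelihood test. The call was lost (adjusted p 0.0582 to 0.101) without at3g50420 replicate 1 or 2, without at5g10690 replicate 1 or 2 and without the second pair, the gene was too low to be tested without the first pair, and the adjusted p was 0.35 in the fit of all 15 libraries. The gene varied widely elsewhere, with 2089, 3 and 3 counts in Col-0.

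The next genes by p did not pass. Higher in at3g50420 by the sign alone were CYP71B22, a cytochrome P450 (log2 fold change 1.15, SE 0.17), AT3G55240, of unknown function (1.03, SE 0.19), and AT5G62360, an inhibitor of pectin methylesterase or invertase (0.89, SE 0.15). CYP71B22 had 305, 216 and 439 counts in at3g50420 against 94, 98 and 222 counts in at5g10690, with no overlap after normalization. Their adjusted p values ranged from 0.164 to 0.245 in edgeR's quasi-likelihood test.

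Lower by the sign alone were the noncoding RNA AT3G15536 (-2.80, SE 0.36), CRK37, a cysteine-rich receptor kinase (-2.63, SE 0.38), XIA, a class XI myosin (-1.99, SE 0.28), and GBF3, a bZIP factor that binds G-boxes (-1.90, SE 0.26). RLP41, a receptor-like protein, had -1.89 (SE 0.27) and AT5G15500, an ankyrin repeat protein, -1.66 (SE 0.24). Their adjusted p values were 0.118 to 0.144. GBF3 had 11, 12 and 31 counts in at3g50420 against 34, 33 and 139 counts in at5g10690, and XIA 21, 9 and 21 counts against 89, 35 and 66 counts. In both genes the lines did not overlap.

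Salicylic acid genes had a median below 0 in pairs 1 and 2 and above 0 in pair 3, and none was called. Salicylic acid is the hormone of defence against biotrophic pathogens, made through ICS1 and PBS3 under the factors SARD1 and CBP60g, and PR1, PR2 and PR5 are its secreted marker proteins. PR2, a beta-1,3-glucanase, had 2308, 758 and 218 counts in at3g50420, against 5529, 2620 and 446 counts in at5g10690. PR1 had 489, 175 and 39 counts in at3g50420, against 1013, 483 and 65 counts in at5g10690. Both were lower in at3g50420 in all 3 pairs, but the lines overlap. For PR2 the overlap came from the low replicate 3 of at5g10690, at 340.5 normalized counts. For PR1, replicate 1 of at3g50420 (622.2) was also above replicate 2 of at5g10690 (598.2). PR5 was lower in pairs 1 and 2 and higher in pair 3, with 999, 194 and 275 counts in at3g50420 against 2677, 651 and 186 counts in at5g10690.

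None of the 16 tested genes of this list of 18 was called in edgeR's quasi-likelihood test, and DESeq2 called PR1 and PR2. PR2 had a log2 fold change of -1.50 (SE 0.23, adjusted p = 0.171) and PR1 -1.29 (SE 0.21, adjusted p = 0.173). Without the block their SEs were 1.175 and 1.2. In the fit of all 15 libraries, edgeR's quasi-likelihood test gave adjusted p of 0.417 and 0.602. Both genes varied widely elsewhere, with 24701, 600 and 1251 counts of PR2 and 4272, 62 and 211 counts of PR1 in Col-0. At an unadjusted p under 0.05 stood 4 lower and 0 higher (background 6.72% lower), and 14 of 16 had a negative fold change. The median was -0.43, against 0.01 over all genes. By pair, the median log2 ratio was -0.93 in pair 1, -1.0 in pair 2 and 0.51 in pair 3. ICS1 (213.8, 155.8 and 222.5 normalized counts in at3g50420 against 436.2, 230.4 and 113.7 in at5g10690) was lower in pairs 1 and 2 and higher in pair 3, as were EDS1, PAD4 and WRKY70.

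**Figure D2:**
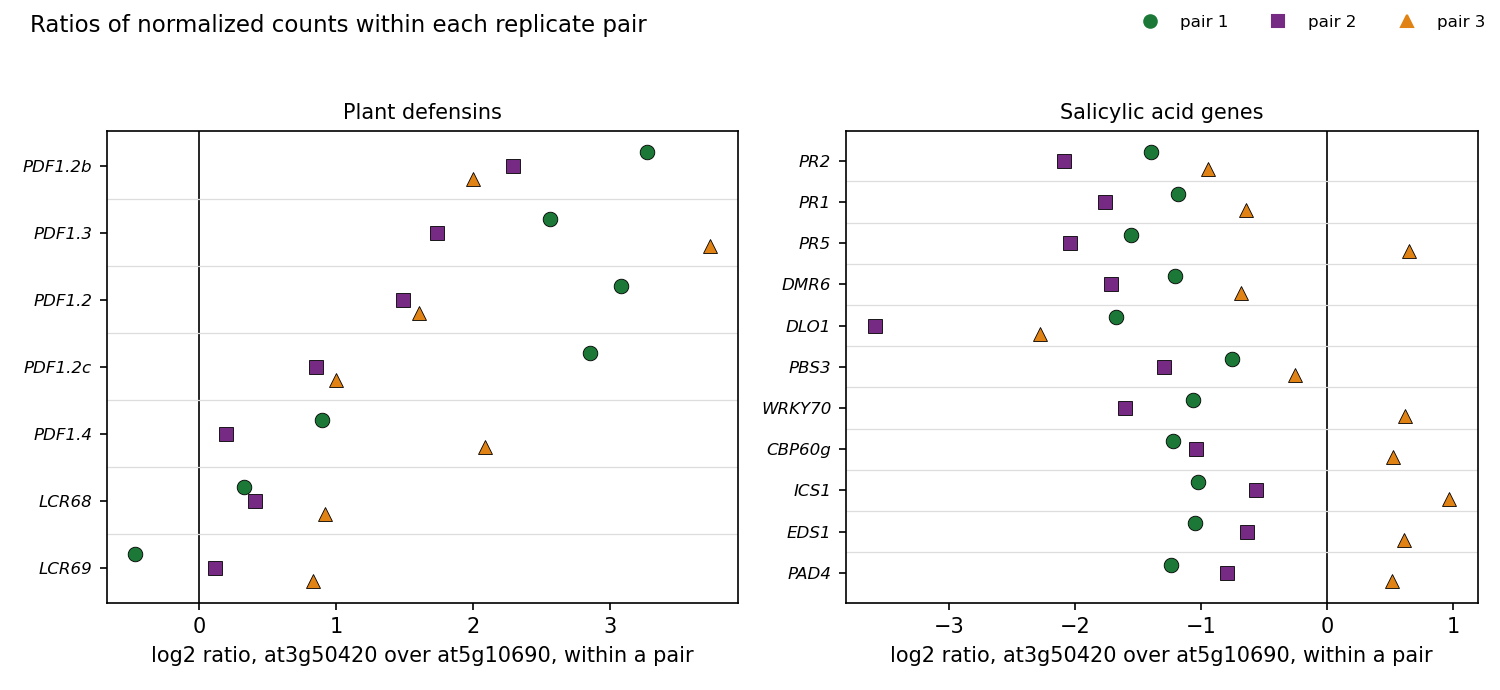
Log2 ratio of normalized counts, at3g50420 over at5g10690, within replicate pairs 1, 2 and 3 (x axes) for 7 plant defensins (left) and 11 genes of salicylic acid synthesis and response (right), 1 point per pair. The PDF1.2 and PDF1.3 genes are above 0 in all pairs, while PR5, WRKY70, CBP60g, ICS1, EDS1 and PAD4 are below 0 in pairs 1 and 2 and above 0 in pair 3.

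Leaving out the third pair changed the count of calls the most among the pairs. In the 2 remaining pairs, edgeR's quasi-likelihood test called 82 of 17271 genes (0.475%), 7 higher and 75 lower in at3g50420 (0.434% lower), and the 4 genes called with all libraries were among them. Without at5g10690 replicate 3 alone 98 genes were called, and without at3g50420 replicate 3 alone 62. With 2 libraries a line, the spread of each gene is largely borrowed from all genes. The 7 genes that rose were AT5G10690, the 4 PDF genes, CYP71B22 and FER1, the gene for an iron-storing ferritin.

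Of the 75 genes that fell in pairs 1 and 2, 5 were on the salicylic acid list, out of 18 of its genes tested there (27.8%, background 0.434%): PR1, PR2, PR5, WRKY70, a factor of the salicylic acid response, and CBP60g, a factor that activates ICS1. Their log2 fold changes in the 2 pairs were -1.47, -1.75, -1.80, -1.33 and -1.15. A further 8 of the 18 were lower at an unadjusted p under 0.05, against 946 of 17271 over all genes. The median of the 18 was -0.95, against -0.00 over all genes. Of 6 more genes of this response, chosen after values had been seen, DMR6 and DLO1, which hydroxylate salicylic acid, and the secreted peptide PNP-A fell in the 2 pairs, at -1.46, -2.32 and -2.47. OM66, a mitochondrial outer membrane protein of the salicylic acid and stress response, and WRKY53, a factor of leaf senescence, fell by 1.21 and 1.81 on the log2 scale.

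The third pair, which took no part in that selection, did not show the same direction for these genes as a group. Of the 75 genes, 34 had a lower and 41 a higher normalized count in at3g50420 replicate 3 than in at5g10690 replicate 3. Their median log2 ratio was 0.21 in pair 3, against a median log2 fold change of -1.50 in the 2 pairs that chose them. Of the 7 genes that rose, 6 were also higher in pair 3, and FER1 was lower. Beside this stood the low leaf markers, the other age label and the high TMM factor (1.3) of at5g10690 replicate 3, whose part in the result was not tested.

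**Figure D3:**
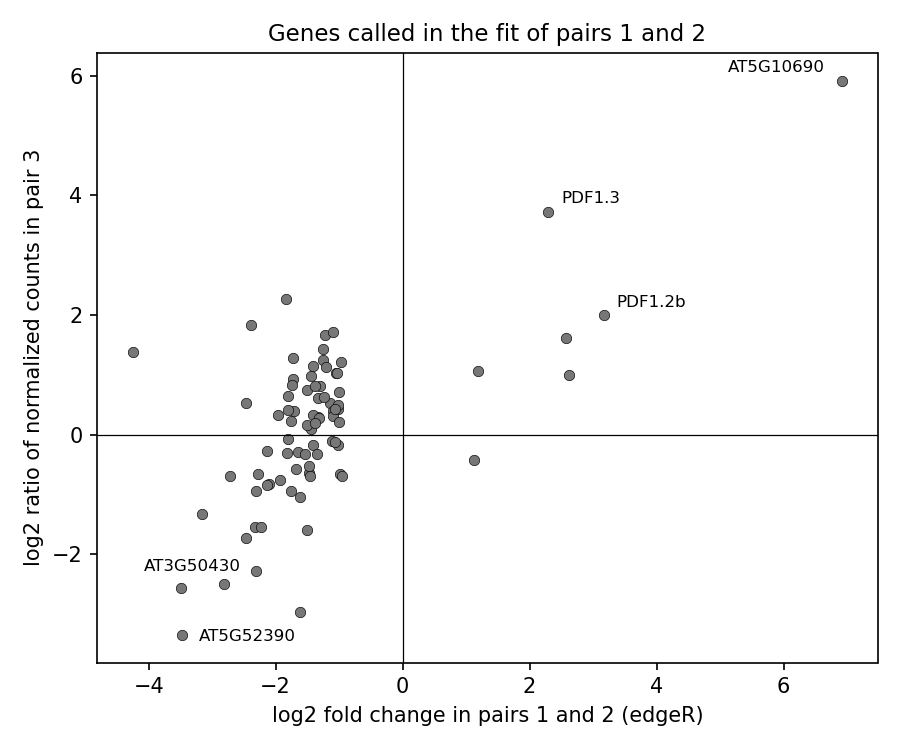
Each point is 1 of the 82 genes called in the fit of pairs 1 and 2, with its log2 fold change there (x axis, edgeR) against its log2 ratio of normalized counts in pair 3 (y axis), both at3g50420 over at5g10690. Of the 75 genes on the left, 41 lie above 0 in pair 3, and 6 of the 7 genes on the right do.

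Receptor-like proteins and cysteine-rich receptor kinases had medians below that of all genes, and none was called. Receptor-like proteins (RLPs) carry leucine-rich repeats outside the cell and no kinase, and several detect microbial patterns. Cysteine-rich receptor kinases (CRKs) carry DUF26 repeats and a kinase domain, and many respond to salicylic acid and oxidative stress. Both families were chosen by symbol after values had been seen. Of 55 RLP genes 42 were tested, and edgeR's quasi-likelihood test called 0 with all libraries, with 17 lower and 0 higher at an unadjusted p under 0.05 (background 6.72% lower). DESeq2 called 4 lower, RLP34, RLP39, RLP41 and RLP42. The median was -0.34, and by pair it was -0.36, -0.44 and -0.22.

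RLP42, which detects fungal polygalacturonases, had 119, 125 and 122 counts in at3g50420, against 328, 254 and 187 counts in at5g10690, with a log2 fold change of -1.17 (SE 0.21, adjusted p = 0.245). RLP41 had 202, 86 and 95 counts in at3g50420, against 775, 410 and 195 counts in at5g10690. It varied widely in Col-0, with 3065, 143 and 190 counts. RLP23, the receptor for the nlp20 pattern, had 382, 230 and 375 counts against 1155, 635 and 341 counts, so that only pairs 1 and 2 were lower by counts. RLPs of 1 cluster on a chromosome can share reads, and these values are uncertain to that extent.

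Of 44 CRK genes 34 were tested with 0 calls, and 11 were lower and 0 higher at an unadjusted p under 0.05 (background 6.72% lower). DESeq2 called 3, CRK4, CRK6 and CRK37. The median was -0.27 over the 3 pairs, at -0.52, -0.38 and 0.16 by pair. CRK37 was lower in all pairs, with 21, 5 and 12 counts in at3g50420 against 165, 40 and 33 counts in at5g10690. In Col-0 it had 952, 17 and 33 counts. In the fit of pairs 1 and 2, 7 of 39 RLP genes (17.9%) and 6 of 35 CRK genes (17.1%) fell, against 0.434% of all genes tested there. These shares only describe the values. Both families were chosen after values had been seen, and this fit leaves out the third pair. The sequence TTGAC, the core of the box bound by WRKY factors, occurred on either strand in the 250 bases before 40 of 55 RLP genes (72.7%) and 31 of 44 CRK genes (70.5%), against 44.3% of all nuclear genes, and before 8 of 18 genes of the salicylic acid list (44.4%). It also occurred before 9 of the 13 PDF genes (69.2%), whose fold changes had the opposite sign, and before 4 of the 6 further salicylic acid genes (66.7%).

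Photosynthesis genes had a median above 0 in every pair, highest in the third, and none was called. LHCB1.1, a chlorophyll-binding protein of photosystem II, had 71626, 86617 and 69973 counts in at3g50420, against 42394, 60258 and 18591 counts in at5g10690. The Rubisco small subunit gene RBCS1A had 133585, 162955 and 92413 counts in at3g50420, against 83608, 116808 and 33768 counts in at5g10690. The lowest library in both genes was at5g10690 replicate 3, and the lines overlapped after normalization. All 17 tested genes of the list had a positive log2 fold change, from 0.43 to 0.94, with a median of 0.74. None was called by edgeR or DESeq2, and 6 had an unadjusted p under 0.05 (background 6.75% higher). By pair the median log2 ratio was 0.35, 0.22 and 1.54, and without the third pair the median log2 fold change was 0.25 with 0 genes at an unadjusted p under 0.05.

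Several flavonoid genes were counted almost only in the third libraries, and highest in that of at5g10690. This pathway leads from CHS and F3H to the anthocyanins through DFR, LDOX and UF3GT under the MYB factors PAP1 and PAP2. DFR had 1, 0 and 42 counts in at3g50420, against 0, 0 and 456 counts in at5g10690. PAP2 had 1, 1 and 46 counts in at3g50420, against 2, 1 and 516 counts in at5g10690. In both lines the gene was counted almost only in replicate 3, and PAP2 was highest in replicate 3 in Col-0, pgn and mef37-1 too, at 189, 107 and 14 counts. Of 11 genes, 6 passed the filter on low counts with all fold changes short of a call, F3H being lowest at -1.11 (SE 0.31, adjusted p = 0.288) with 10, 8 and 30 counts in at3g50420 against 19, 12 and 76 counts in at5g10690. DFR, LDOX, UF3GT, PAP2 and TT8 did not pass it.

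In the fit of all 15 libraries, edgeR's quasi-likelihood test called PAP2 lower in at3g50420 than in at5g10690 (log2 fold change -3.12, adjusted p = 0.0266), and NUDT24, a nudix hydrolase, with 0, 0 and 35 counts in at3g50420 against 0, 1 and 725 counts in at5g10690 (-4.26, adjusted p = 0.00285). The counts of both genes lay almost only in replicate 3 of each line. AT5G10690 and AT3G50430 were the other 2 genes called in that fit.

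**Figure D4:**
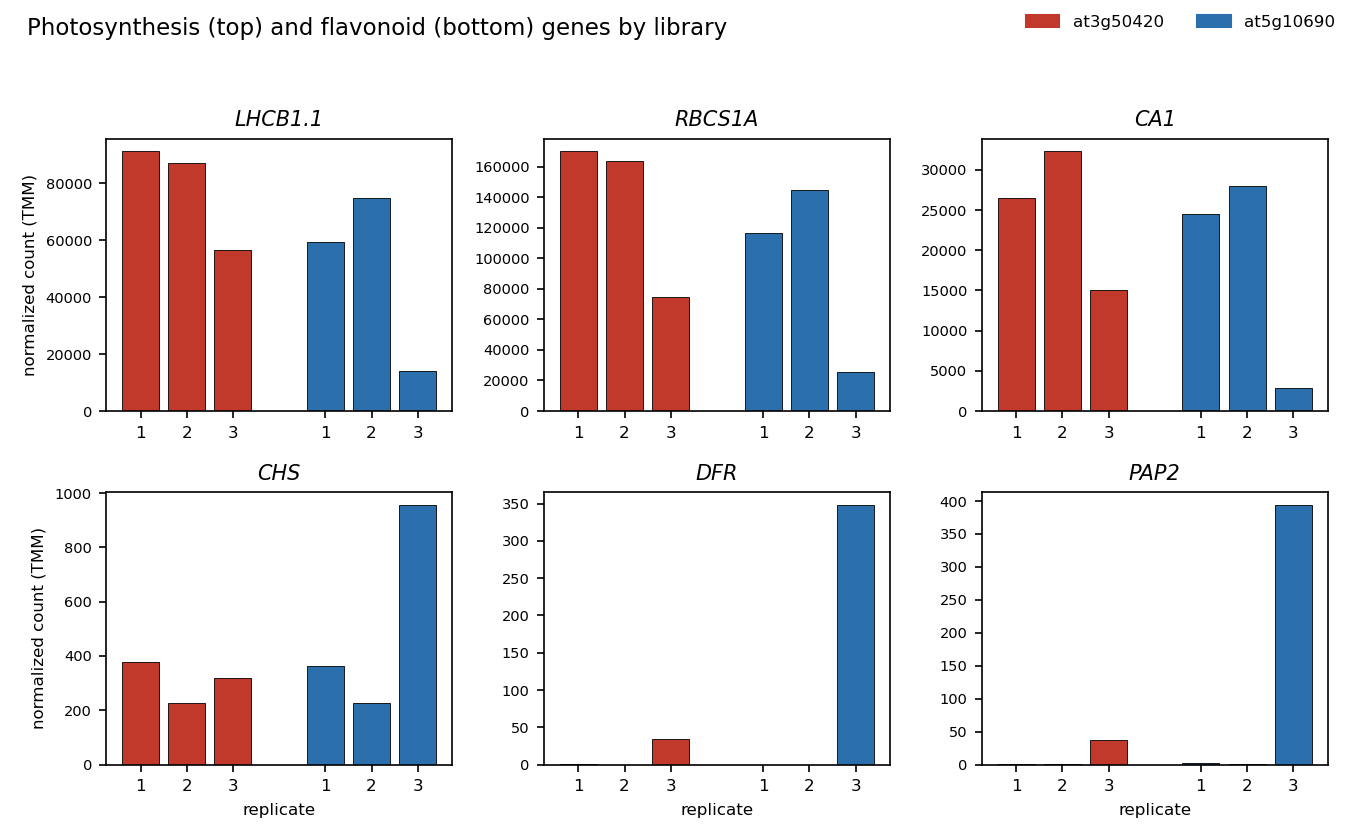
Normalized counts (y axes, linear from 0) of 3 photosynthesis genes (top) and 3 flavonoid genes (bottom) in each replicate of at3g50420 and at5g10690 (x axes), 1 bar per library. Replicate 3 of at5g10690 is lowest for LHCB1.1, RBCS1A and CA1 and highest for CHS, DFR and PAP2.

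Genes tied to organelle RNA gave no call between the lines. Of 18 characterized PPR editing factors 15 were tested, with 0 called by edgeR or DESeq2 and 0 at an unadjusted p under 0.05, and the median was -0.10. CLB19, a plastid editing factor, had 21, 34 and 47 counts in at3g50420 against 40, 28 and 82 counts in at5g10690 (-0.61, SE 0.28), and SLO1, a mitochondrial one, had -0.78 (SE 0.38). PGN and MEF37, the factors named in the other lines of the series, had -0.03 (SE 0.25) and -0.03 (SE 0.38). Of 10 tested editing cofactors none was called or had an unadjusted p under 0.05. The largest log2 fold change by size was that of NUWA, at -0.33 (SE 0.33), and MORF9 had 409, 585 and 407 counts in at3g50420 against 353, 428 and 350 counts in at5g10690 (0.17, SE 0.13).

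Mitochondrial transcripts had a median below and plastid transcripts one above 0, with 0 calls by edgeR's quasi-likelihood test or DESeq2. Of 42 tested mitochondrial genes 7 were lower and 0 higher at an unadjusted p under 0.05 (background 6.72% lower), with log2 fold changes of -0.90 to 0.49 over the 42 and a median of -0.17. The pairs differed, at 0.14, -0.17 and -0.39. Of 122 tested plastid genes 20 were higher and 0 lower (background 6.75% higher), with a median of 0.08. Plastid genes of the inverted repeat share their reads, so some of these 20 are the same signal counted at both copies. Mitochondrial retrograde response genes, such as AOX1A, the alternative oxidase, were called in neither direction, with 1 of 10 lower at an unadjusted p under 0.05. AOX1A had 399, 714 and 982 counts in at3g50420 against 477, 513 and 758 counts in at5g10690 (0.08, SE 0.18).

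The other lists gave 0 calls by edgeR's quasi-likelihood test or DESeq2, apart from PDF1.2, which DESeq2 called within the jasmonate list. The likelihood ratio test of edgeR called PDF1.2 higher there. It also called 1 lower gene in each of the jasmonate, clock, sugar starvation and senescence lists. Over all genes, 6.75% were higher and 6.72% lower at an unadjusted p under 0.05, and the counts below are given as values only. Of 13 jasmonate genes 1 was higher (PDF1.2) and 1 lower at an unadjusted p under 0.05, JAZ5, a repressor of the response, at -0.97 (SE 0.21), with a median of -0.02. Of 17 clock genes 2 were lower, PRR3 at -0.62 (SE 0.16) and ELF3 at -0.37 (SE 0.14), with a median of -0.13. Of 14 dehydration and cold genes 1 was higher, COR15B at 0.42 (SE 0.18), and 2 were lower, KIN1 and RAB18, at -0.54 (SE 0.17) and -0.49 (SE 0.17). Of 10 senescence genes 1 was lower, the NAC factor NAP at -0.82 (SE 0.18), with a median of -0.30.

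Of 9 sugar starvation genes 2 were lower at an unadjusted p under 0.05 (background 6.72% lower), with a median of -0.17. They were EXL2 at -0.78 (SE 0.17) and BCAT2, of branched-chain amino acid breakdown, at -1.30 (SE 0.45). BCAT2 had 88, 62 and 167 counts in at3g50420 against 80, 82 and 1154 counts in at5g10690, and without at5g10690 replicate 3 its log2 fold change was -0.35. Of 8 flowering genes 1 was lower, MAF2 at -0.60 (SE 0.20), and the median was -0.15. Of 9 heat shock genes 2 were tested, HSP101 at -0.34 (SE 0.19) and HSP90.1 at -0.00 (SE 0.28).

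**Figure D5:**
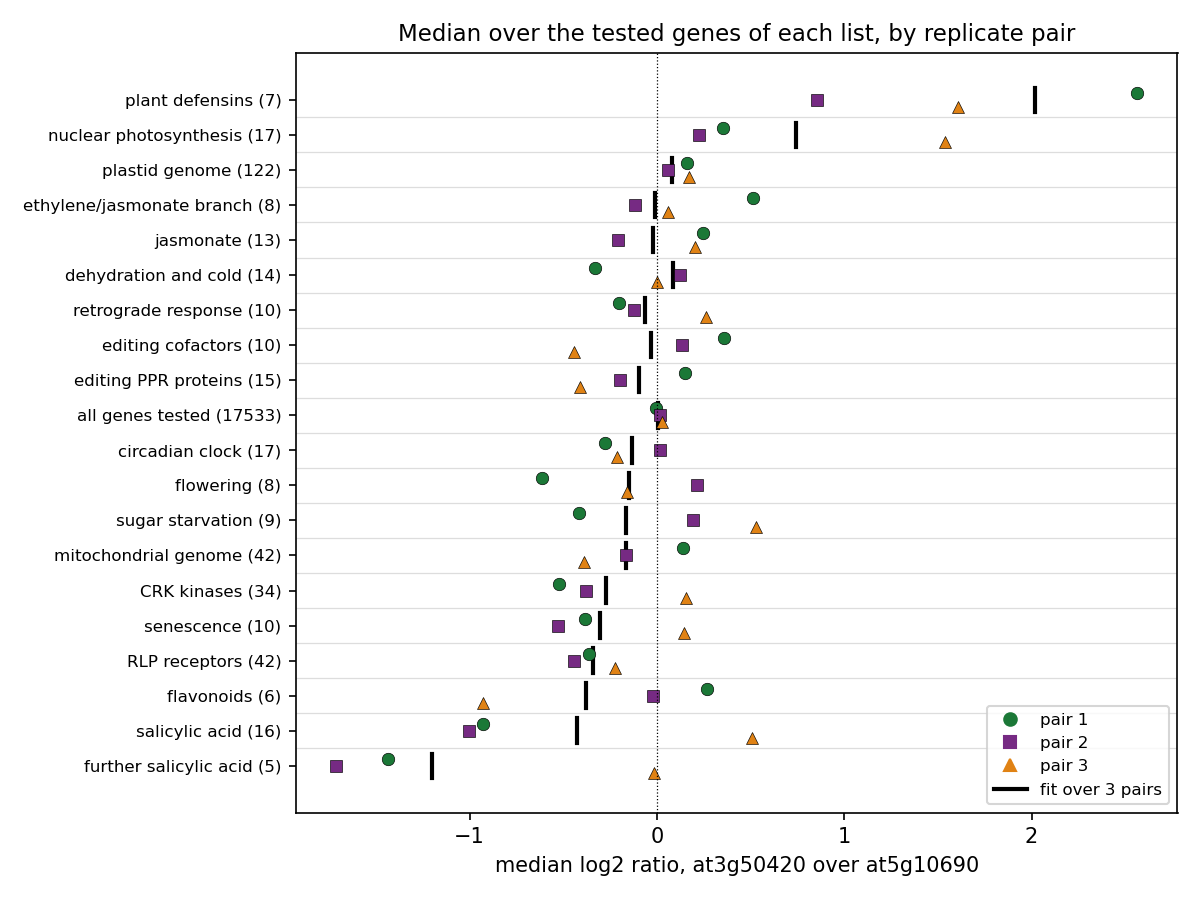
Median log2 ratio (x axis, at3g50420 over at5g10690) over the tested genes of each list (y axis, number of tested genes in brackets), with 1 point per replicate pair and a black line for the edgeR fit over the 3 pairs. All genes tested lie at 0.01, plant defensins and photosynthesis genes are above 0 in all 3 pairs, and salicylic acid genes are at -0.93 and -1.0 in pairs 1 and 2 and at 0.51 in pair 3.

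Finally, 2 genes that were called against Col-0 in both lines were not called between them, and for both genes the Col-0 counts did not overlap those of any of the 4 mutant lines of the series. MRD1 (AT1G53480), named for its low level in the mto1 mutant, had 4, 16 and 12 counts in at3g50420 and 5, 3 and 5 counts in at5g10690, against 232, 224 and 257 counts in Col-0, and it had 0, 7 and 3 counts in mef37-1 and 2, 0 and 5 counts in pgn. MAF5 (AT5G65080), a MADS-box relative of the flowering repressor FLC, had 19, 62 and 86 counts in at3g50420 and 35, 35 and 106 counts in at5g10690, against 6, 1 and 3 counts in Col-0, and it had 145, 118 and 94 counts in mef37-1 and 22, 9 and 42 counts in pgn. In the fit of all 15 libraries, edgeR's quasi-likelihood test called MRD1 lower and MAF5 higher than Col-0 in both lines, with log2 fold changes for MRD1 of -4.42 in at3g50420 and -5.55 in at5g10690. For MAF5 they were 4.09 in at3g50420 and 4.21 in at5g10690. Between the 2 lines MAF5 had -0.18 (SE 0.29, adjusted p = 0.806). MRD1 was too low for the fit of the 6 libraries and had 1.13 in that of the 15 (adjusted p = 0.393). HEI10 (AT1G53490), which overlaps MRD1 on the opposite strand, had -0.05 (SE 0.44) between the 2 lines. Against Col-0, in the fit of all 15 libraries, HEI10 had -1.64 (SE 0.37) in at3g50420 and -1.59 (SE 0.37) in at5g10690, neither called.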

How the data were processed

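Strand-specific libraries of total RNA from 15 rosette samples, after removal of ribosomal RNA, were read from 1 end over 75 bases. Per the file headers and the study's methods, the authors mapped reads with STAR without introns, kept all best positions, and deposited counts of reads on exons per gene and strand, made with featureCounts (v1.5.0-p2, TAIR10, annotation release 36) with multiply mapped reads included and no normalization. A read of a repeated sequence is therefore counted more than once.

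The 3 at3g50420 libraries were set against the 3 at5g10690 libraries with edgeR 4.0.16 (R 4.3.3). Genes were kept by filterByExpr, libraries were scaled by TMM, and the quasi-likelihood test had the replicate number as a block. Calls are p-values under 0.05 after the adjustment of Benjamini and Hochberg over 17533 genes. Log2 fold changes are at3g50420 minus at5g10690. The replicate numbers come from the sample titles, and same-numbered libraries deviated from their line's mean together (correlations 0.384, 0.516 and 0.740), so the block was kept. Libraries of unlike number had correlations of -0.616 to 0.25, with 0.25 and 0.188 between replicates 1 and 2. Ratios within a pair used a pseudocount of 0.5. Replicates of a line differed by 22.8 to 108 times the sampling variance. An exact permutation test of 3 against 3 cannot go below 0.1. Nuclear gene positions were the same in RefSeq (TAIR10.1) for 32532 of 32548 genes, and sequences are from that assembly. The fit was tested on simulated counts.

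Named were the targeted genes with 2 neighbours on either side, the called genes and those of smallest p up to 8 per direction, 2 genes of smallest p per list, and AT1G53480, AT1G53490 and MAF5; further names were chosen after their values were seen. Members and lists were chosen with earlier results of these data known. Alternatives were RLE normalization, the likelihood ratio test, DESeq2 1.42.0, other filters, nuclear genes, all 15 libraries, no block, a threshold of 0.01 and each library or pair left out.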

Additional observations from a re-analysis of the deposited data

How the results depend on the processing

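The 4 calls with the replicate block became 1 without it, 5 with RLE normalization, 53 with DESeq2, 267 with edgeR's likelihood ratio test, 67 without a filter on low counts, 0 with at least 10 reads in every library (2265 genes at an unadjusted p under 0.05) and 1 at a threshold of 0.01. They ranged from 6 to 98 when a library or pair was left out. The cause was not tested, except that the filter of 10 reads in every library left all 4 called genes untested. AT5G10690 was called in every setting that tested it, with a log2 fold change of 6.19 to 6.94 with libraries left out and 6.66 without the replicate block. The log2 fold change of AT3G50420 was 0.0409 with DESeq2 and -0.63 to 0.63 with libraries left out.

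Signs turned only for values near 0 or resting on 1 pair. MES10 (AT3G50440) had -0.0085 without the block. HSP90.1 (AT5G52640) had 0.30 without the block, 0.0014 with at least 10 reads in every library and 0.0204 in the fit of 15 libraries. With libraries left out, ranges that cross 0 were -0.15 to 0.36 for MES10, -0.84 to 0.24 for AT5G10695, -0.79 to 0.0554 for NUWA (AT3G49240), -1.35 to 0.24 for PAP1 (AT1G56650), -0.69 to 0.27 for HSP90.1, -2.72 to 0.53 for the root gene PYK10 (AT3G09260), -0.19 to 0.15 for HEI10 (AT1G53490) and -0.55 to 0.11 for MAF5 (AT5G65080). Genes with few reads, such as AT3G50420, have wide intervals.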
